A study of Mus musculus with 15 samples.

Results

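Deep-layer cortical neuron genes are described here through 10 genes of 54736 in the table, genes of layer 5 and layer 6 neurons picked by name. The 10 are Fezf2, Bcl11b, Etv1, Crym, Tle4, Foxp2, Tbr1, Syt6, Nr4a2 and Ntng2, and all 10 reached a mean of 1 TPM (transcript abundance scaled by length and by the library total) over the 15 libraries. The tissue was medial prefrontal cortex taken by micropunch, so every value is a mean over all layers and cell types that a punch held. The 8 libraries titled KO come from heterozygous Df(h15q13)/+ mice, which carry 1 copy of a chromosome 7 segment matching the human 15q13 microdeletion. The 7 libraries titled WT come from their wild-type littermates. All mice were male, of strain C57BL/6 and 8 to 10 weeks old, with no treatment named, and the deletion is a germline change present in every cell type. Titles and the series' design text give the group sizes the opposite way round, and the titles were used. Klf13, a transcription factor gene inside the deletion, checks them: its lowest KO and highest KO values were 31.7 and 39.0 TPM, and its lowest and highest WT values were 61.8 and 83.7 TPM (limma adjusted p = 2.04e-06).

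Neurons of layers 5 and 6 send the cortex's output. Layer 5 extratelencephalic neurons reach the brainstem and spinal cord, layer 5 intratelencephalic neurons reach other cortex and the striatum, layer 6 corticothalamic neurons reach the thalamus, and layer 6b holds the remnant of the early subplate. Their identities are set in development by transcription factors that repress each other: Fezf2 and Bcl11b favour the subcerebral fate, and Tbr1 favours the corticothalamic fate and represses Fezf2.

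Libraries KO 1 and KO 8 stood apart from the others in oligodendrocyte genes. Oligodendrocyte genes (10 listed, 10 detected) summed to 1380 TPM in KO 8 and 917 TPM in KO 1, against at most 413 TPM in the other KO libraries and 406 to 551 TPM in WT. Upper-layer neuron genes (12 listed, 12 detected) summed to 379 TPM in KO 1, 488 TPM in KO 8, 495 TPM in KO 4 and 582 TPM in KO 3, against 644 to 801 TPM in the other KO libraries and 607 to 809 TPM in WT, so on that measure KO 8 did not stand apart from KO 4. The members' differences and the list medians are given with and without KO 1 and KO 8, and single genes of other lists over all libraries unless stated. The labels name no sequencing batch. The labels do not name individual animals, each library is taken as 1 mouse, and p-values measure the spread between libraries. TPM keeps no read depth, so the depth behind a value is unknown.

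None of the 10 deep-layer genes differed between KO and WT past the threshold (limma, adjusted p under 0.05 over 18656 tested genes), a threshold that 0.0268% of tested genes passed. The KO and WT values overlapped for all 10. The share of all tested genes with such overlap was not computed, so the overlap is not read as particular to the members. The mean on the log2(TPM + 1) scale was higher in KO for 8 members and lower for 2, Etv1 and Nr4a2, where 54.7% of all tested genes were higher. The median difference of the members was 0.29 on the log2 scale, beside 0.02 over all tested genes, and it was 0.06 without KO 1 and KO 8. At an unadjusted p under 0.05, 3 members were higher (Bcl11b, Crym and Foxp2) and 0 were lower, beside 5.68% and 6.21% of tested genes. An exact permutation test of the group labels, with 6435 arrangements and a smallest possible p of 0.000155, gave members adjusted p-values of 0.428 to 0.927 over all genes, and no gene of the table passed by it. Before adjustment its p was 0.0466 for Crym, 0.0671 for Bcl11b and 0.0702 for Foxp2. Fewer cells of a type and less RNA per cell cannot be told apart in such bulk tissue, nor can more cells and more RNA. Differences on this scale understate those of low genes such as Foxp2.

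**Figure D1:**
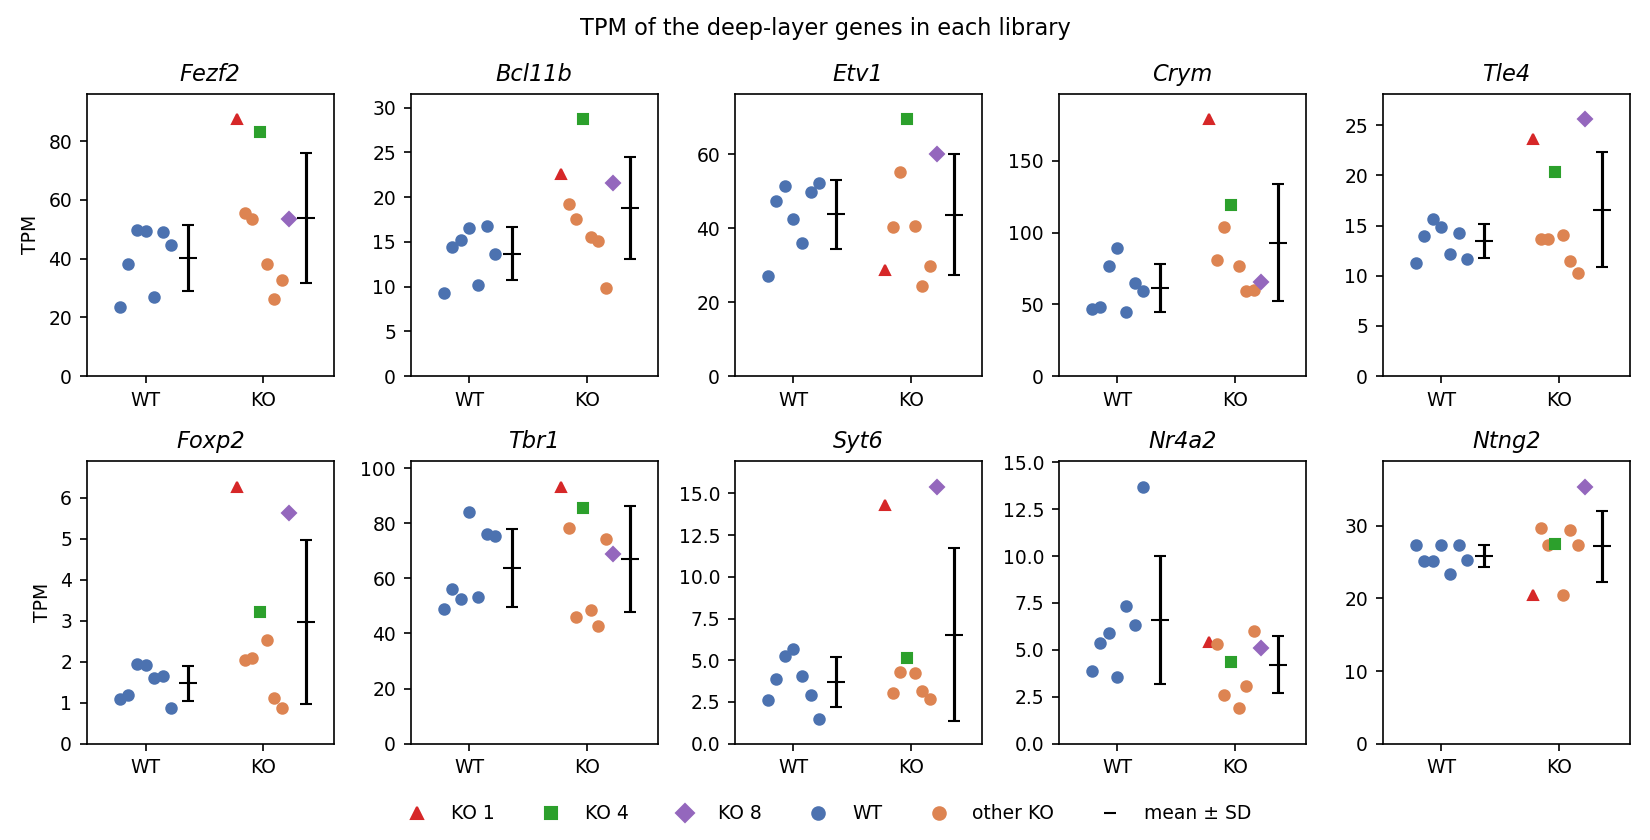
TPM of each deep-layer gene (y axis, starting at 0) in 7 WT and 8 KO libraries, 1 point per library, with the group mean and SD beside the points. KO 1, KO 4 and KO 8 carry their own symbols: KO 1 and KO 8 are highest for Foxp2, Syt6 and Tle4, and every panel has overlapping groups.

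Among the layer 5 genes, Fezf2 (ENSMUSG00000021743, mm10 chr14:12342094-12348189, minus strand) is the zinc finger factor that selects the subcerebral fate. Its lowest, median and highest values were 23.4, 44.7 and 49.8 TPM in WT and 26.4, 53.4 and 87.5 TPM in KO. KO 1 and KO 4, at 87.5 and 83.0 TPM, lay far above every WT library, while KO 5, KO 6 and KO 7 lay below the WT median. The KO mean was 53.8 ± 22.1 TPM (SD, n = 8) against 40.2 ± 11.1 TPM (SD, n = 7) in WT, a log2 difference of 0.36 ± 0.25 (SE; limma adjusted p = 0.539), and 0.21 ± 0.25 without KO 1 and KO 8. The difference was within the spread between libraries.

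Bcl11b (ENSMUSG00000048251, chr12:107910403-108003602, minus strand), also called Ctip2, acts downstream of Fezf2 in subcerebral neurons and is also expressed by interneurons and striatal neurons. It ran from 9.25 through a median of 14.4 to 16.8 TPM in WT and from 9.86 through 18.4 to 28.7 TPM in KO. KO 4 held the highest value, and 7 of 8 KO libraries lay above the WT mean, 5 of them above every WT library. KO averaged 18.8 ± 5.70 TPM (SD, n = 8) and WT 13.7 ± 2.93 TPM (SD, n = 7). The log2 difference was 0.40 ± 0.18 (SE; limma adjusted p = 0.409), and the exact permutation p was 0.0671 before adjustment. Without KO 1 and KO 8 the limma adjusted p was 0.58, at a log2 difference of 0.31 ± 0.20. Because Bcl11b is also a striatal gene, a striatal marker list was set beside it: its summed level was 125 to 152 TPM in WT and 125 to 161 TPM in KO, 9 of 12 genes reached a mean of 1 TPM, and 6 of these were higher and 3 lower in mean in KO (median log2 difference 0.12, and 0.04 without KO 1 and KO 8). The dopamine receptor gene Drd1 averaged 3.51 TPM in WT and 4.98 TPM in KO, and Rgs9 was at 16.4 TPM in KO 1 against a WT maximum of 9.10 TPM. Isl1 was listed at 0 in every library but KO 1 (0.0693 TPM), and Six3 averaged 0.0057 TPM in WT and 0.0304 TPM in KO. Drd1, Isl1 and Six3 were named after their values were seen. The part of these genes in the Bcl11b values was not tested.

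Etv1 (ENSMUSG00000004151, chr12:38779380-38870484, plus strand), an ETS-domain transcription factor of layer 5 neurons, showed the smallest shift of this group. WT libraries held 27.1, 47.3 and 52.2 TPM as lowest, median and highest, and KO libraries 24.5, 40.4 and 69.5 TPM. KO 1, which led for Fezf2, held 28.8 TPM here, close to the WT minimum, so the members did not move as 1 block in that library. The means were 43.6 ± 16.4 TPM (SD, n = 8) in KO and 43.8 ± 9.26 TPM (SD, n = 7) in WT. The limma log2 difference was -0.06 ± 0.21 (SE, adjusted p = 0.913), with a 95% interval of -0.51 to 0.39, and it was -0.07 ± 0.22 without KO 1 and KO 8.

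Crym (ENSMUSG00000030905, chr7:120186380-120202111, minus strand) encodes mu-crystallin, a cytosolic thyroid hormone binding protein of layer 5 and 6 neurons. It was at 44.6, 59.6 and 89.2 TPM (lowest, median, highest) in WT and 59.6, 78.8 and 179 TPM in KO. KO 1 stood alone at 179 TPM, and 3 KO libraries exceeded every WT library. Mean levels were 93.1 ± 40.5 TPM (SD, n = 8) in KO and 61.5 ± 16.8 TPM (SD, n = 7) in WT, a ratio of 151%. The limma log2 difference was 0.53 ± 0.22 (SE, adjusted p = 0.388). It was 0.43 ± 0.19 with KO 1 and KO 8 left out (limma adjusted p = 0.445). Among 8 genes of thyroid hormone transport and action, 3 were higher and 5 lower in mean, with 0 past the threshold by limma, 0 higher and 2 lower at an unadjusted p under 0.05, and a median of -0.12 (-0.10 without KO 1 and KO 8). The 2 were the hormone transporter Slco1c1 at -0.44 ± 0.09 and the activating deiodinase Dio2 at -0.61 ± 0.16.

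**Figure D2:**
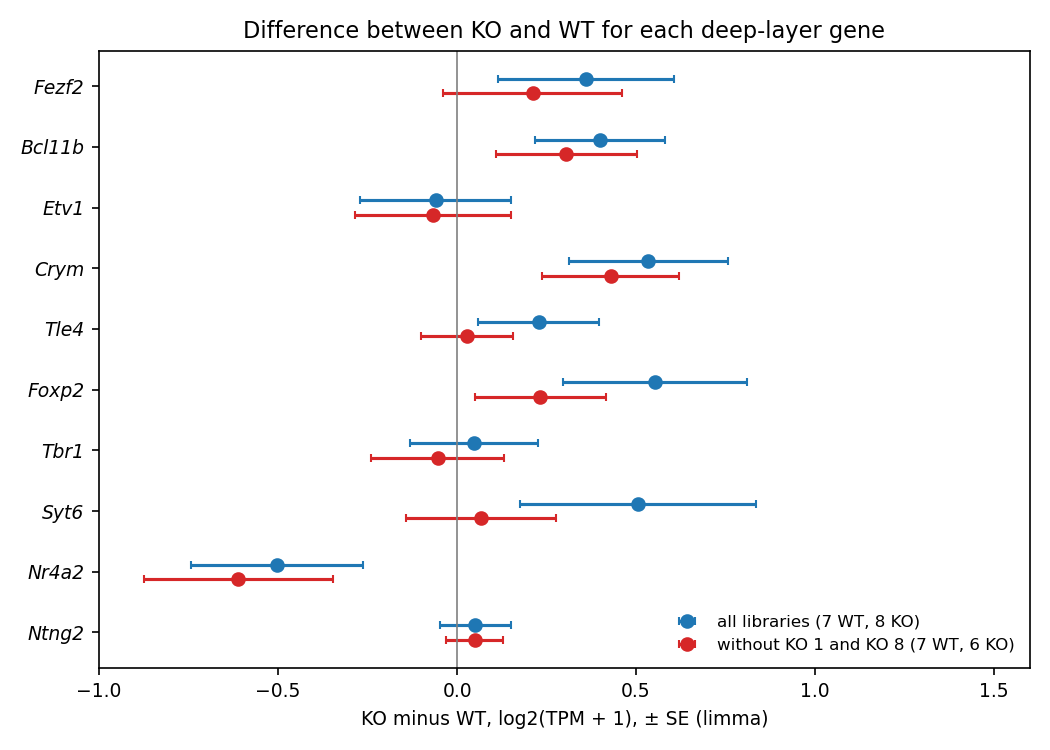
KO minus WT difference of each deep-layer gene on the log2(TPM + 1) scale (x axis) with its limma SE, over all libraries (blue) and without KO 1 and KO 8 (red). Foxp2, Syt6 and Tle4 move most toward 0 when the 2 libraries are left out, to 0.23, 0.07 and 0.03, and Nr4a2 stays lower in mean at -0.61.

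The layer 6 corticothalamic genes Tle4, Foxp2 and Syt6 shared 1 pattern, in which KO 1 and KO 8 held the highest values of all libraries. Tle4 (ENSMUSG00000024642, chr19:14448150-14598051, minus strand), a Groucho-family corepressor and standard corticothalamic marker, ranged from 11.3 through 14.0 to 15.7 TPM in WT and from 10.3 through 13.9 to 25.6 TPM in KO. The medians were almost equal, and KO 8, KO 1 and KO 4 alone (25.6, 23.6 and 20.3 TPM) lay above every WT library. KO averaged 16.6 ± 5.76 TPM (SD, n = 8) and WT 13.4 ± 1.72 TPM (SD, n = 7). The limma log2 difference of 0.23 ± 0.17 (SE, adjusted p = 0.565) was 0.03 ± 0.13 without KO 1 and KO 8 (adjusted p = 0.955).

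Foxp2 (ENSMUSG00000029563, chr6:14901349-15441977, plus strand), a forkhead transcription factor of corticothalamic neurons, was the lowest member, at 0.882 to 1.95 TPM in WT with a median of 1.61 and at 0.875 to 6.27 TPM in KO with a median of 2.31. KO 1 at 6.27 TPM and KO 8 at 5.64 TPM led, KO 4 followed at 3.21 TPM, and 6 of 8 KO libraries lay above every WT library. Its KO mean, 2.97 ± 1.99 TPM (SD, n = 8), was 202% of the WT mean of 1.47 ± 0.418 TPM (SD, n = 7), at a limma log2 difference of 0.55 ± 0.26 (SE, adjusted p = 0.416). Without KO 1 and KO 8 that difference was 0.23 ± 0.18 (limma adjusted p = 0.649).

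Syt6 (ENSMUSG00000027849, chr3:103575231-103645569, plus strand) encodes a synaptotagmin, and its promoter drives the Cre line used to target corticothalamic neurons. WT libraries held 1.49, 3.86 and 5.67 TPM as lowest, median and highest, and KO libraries 2.70, 4.29 and 15.4 TPM. Only KO 8 at 15.4 TPM and KO 1 at 14.3 TPM exceeded the WT maximum, by more than 2-fold, and the other 6 lay within the WT range. Means were 6.54 ± 5.20 TPM (SD, n = 8) in KO and 3.70 ± 1.49 TPM (SD, n = 7) in WT. The limma log2 difference was 0.51 ± 0.33 (SE, adjusted p = 0.521) and 0.07 ± 0.21 without those libraries (adjusted p = 0.927). The gene overlaps Atg4a-ps on the opposite strand, which had a mean of 1.18 TPM, and without a stated strand setting their reads cannot be told apart.

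Tbr1 (ENSMUSG00000035033, chr2:61802930-61814114, plus strand), the T-box factor of corticothalamic fate, did not share that pattern. Its WT libraries ran from 49.0 through 56.0 to 84.2 TPM and its KO libraries from 42.8 through 71.5 to 93.3 TPM. KO 8 held 68.9 TPM, inside the WT range, and 3 KO libraries lay below every WT library. The group means of 67.2 ± 19.2 TPM (SD, n = 8) in KO and 63.8 ± 14.3 TPM (SD, n = 7) in WT differed by less than either SD. The log2 difference was 0.05 ± 0.18 (SE, limma adjusted p = 0.917), with a 95% interval of -0.33 to 0.43, and it was -0.05 ± 0.19 without KO 1 and KO 8.

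Nr4a2 (ENSMUSG00000026826, chr2:57106830-57124003, minus strand), the orphan nuclear receptor Nurr1 of layer 6b and claustrum, is also induced by neuronal activity. It was the member with the largest downward difference, with WT values of 3.58, 5.91 and 13.7 TPM (lowest, median, highest) and KO values of 1.89, 4.71 and 6.01 TPM. No KO library reached the WT mean of 6.60 TPM, and WT 7 alone held 13.7 TPM. KO averaged 4.22 ± 1.51 TPM (SD, n = 8), which is 63.9% of the WT mean (SD 3.42, n = 7). The limma log2 difference was -0.50 ± 0.24 (SE, adjusted p = 0.425), -0.61 ± 0.26 without KO 1 and KO 8, and -0.33 without WT 7.

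Ntng2 (ENSMUSG00000035513, chr2:29194541-29253005, minus strand), a netrin-G adhesion protein of deep-layer and claustral neurons, had the tightest WT values of all members, 23.4, 25.3 and 27.4 TPM as lowest, median and highest, while its KO values ran from 20.5 through 27.4 to 35.4 TPM. KO 8 was highest, and KO 1 and KO 5 at 20.5 TPM were below every WT library. With means of 27.2 ± 4.91 TPM (SD, n = 8) in KO and 25.9 ± 1.51 TPM (SD, n = 7) in WT, the limma log2 difference was 0.05 ± 0.10 (SE, adjusted p = 0.834), and it was 0.05 ± 0.08 without KO 1 and KO 8. Its reads may be shared with 6530402F18Rik, which overlaps it on the same strand and had a mean of 5.74 TPM.

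Ordered by WT mean level per length in TPM, the members ran Tbr1, Crym, Etv1, Fezf2, Ntng2, Bcl11b, Tle4, Nr4a2, Syt6 and Foxp2. Neighbours overlapped in their WT ranges, except Ntng2 and Bcl11b, where Ntng2 was higher in 7 of 7 WT libraries. In KO the gap between Tle4 and Nr4a2 was the only one without overlap, with Tle4 higher in 8 of 8 libraries. Crym was below Tbr1 in 5 of 7 WT libraries and above it in 6 of 8 KO libraries, and that change was not tested.

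The spread between KO libraries was the larger one for 9 of 10 members on the log2 scale, where 66.4% of tested genes showed the same, and the median ratio of KO to WT SD was 1.52 for members and 1.2 for all tested genes. Leaving out KO 1 and KO 8, the KO spread was still the larger one for 8 of 10 members, beside 53.8% of tested genes. Ntng2 had the highest ratio, 3.16, followed by Foxp2 at 2.79 and Tle4 at 2.64. KO 4 exceeded every WT library for 8 members, KO 1 and KO 8 for 7 each, and KO 7 for 0. For KO 3 the count was 5, for KO 2 it was 4, and for KO 5 and KO 6 it was 1 each. The share of all tested genes above every WT library was not computed for single libraries. These counts are therefore not read as particular to the members. Averaged over the members, KO 1, KO 8 and KO 4 were the 3 highest libraries and WT 1 the lowest, and WT 1 was also the lowest WT library for 5 members.

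**Figure D3:**
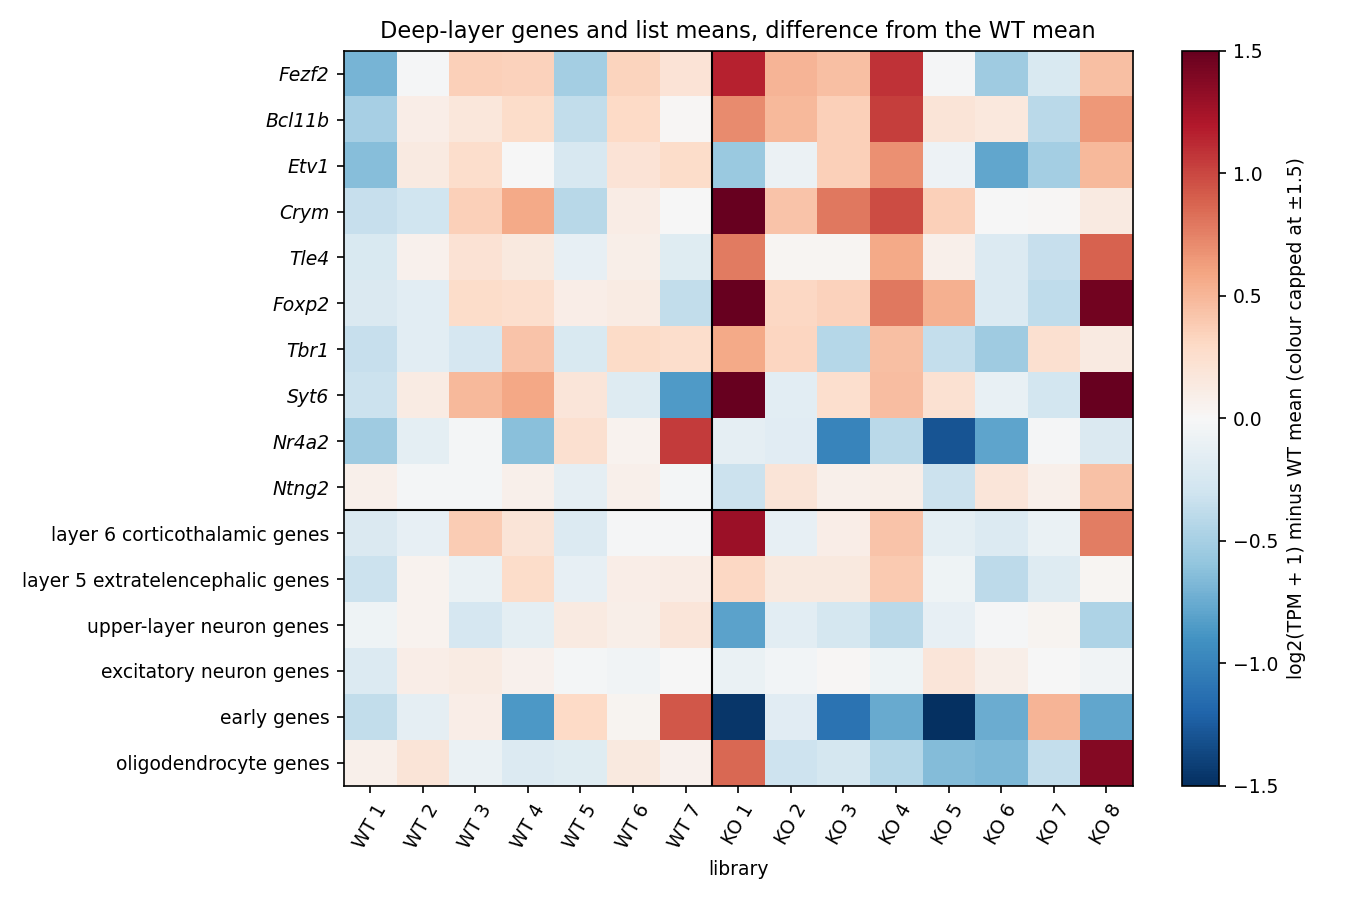
Log2(TPM + 1) of each deep-layer gene and, below the line, the mean of 6 gene lists, in each of the 15 libraries (columns), as the difference from the WT mean. Red is higher and blue lower; KO 1, KO 4 and KO 8 are red for most members and blue for the upper-layer list.

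Pairs of members were compared over the 15 libraries by their deviations from group means, a description of 45 pairs that share libraries, scaling and dissection. By permutation of libraries within groups (100000 resamples) with Benjamini-Hochberg adjustment over the 45, 9 pairs passed by Pearson's r and 12 by Spearman's rho, and all 9 were positive. The tightest was Tle4 with Foxp2 at r = 0.95 and rho = 0.943, with a permutation p of 1e-05, the smallest that the resamples can give, and an adjusted p of 0.000225. It was 0.907 without KO 1 and KO 8, the 2 libraries farthest from the Tle4 median, 0.772 within WT and 0.971 within KO. Every r given without the 2 farthest libraries, here and below, kept the group means of all 15 libraries. Foxp2 with Syt6 gave r = 0.914 and rho = 0.929 (adjusted permutation p = 0.000225, r = 0.886 without KO 1 and KO 7), and Tle4 with Syt6 gave r = 0.884 and rho = 0.854 (adjusted permutation p = 0.0006, r = 0.744 without KO 1 and KO 8). Over all 15 libraries these corticothalamic genes were the closest trio. With group means taken again without KO 1 and KO 8, r was 0.887, 0.748 and 0.684 in the same order. Fezf2 with Bcl11b was then at 0.883, Fezf2 with Crym at 0.88 and Bcl11b with Crym at 0.802, so the trio was no longer the closest.

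Fezf2, Bcl11b and Crym also varied together, though not apart from the corticothalamic gene Tle4. Fezf2 with Bcl11b gave r = 0.873 and rho = 0.896 (adjusted permutation p = 0.00157; r = 0.898 without the 2 farthest libraries, WT 1 and KO 6), and Fezf2 with Crym gave r = 0.853 and rho = 0.9 (adjusted permutation p = 0.00216; r = 0.85 likewise). Fezf2 also passed with Tle4 (r = 0.743) and Tbr1 (r = 0.702), and Bcl11b with Tle4 (r = 0.795) and Crym (r = 0.685). Bcl11b with Crym was the lowest r of the 9, so the passing pairs did not sort by layer. None of the 9 pairs included Etv1, Nr4a2 or Ntng2. Etv1 with Fezf2 was at r = 0.619 over all libraries and 0.919 with group means taken again without KO 1 and KO 8. KO 1 held high Fezf2 beside low Etv1. Nr4a2 and Ntng2 had r of 0.14 and -0.029 with the mean of the other members, while Tle4 reached 0.904.

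**Figure D4:**
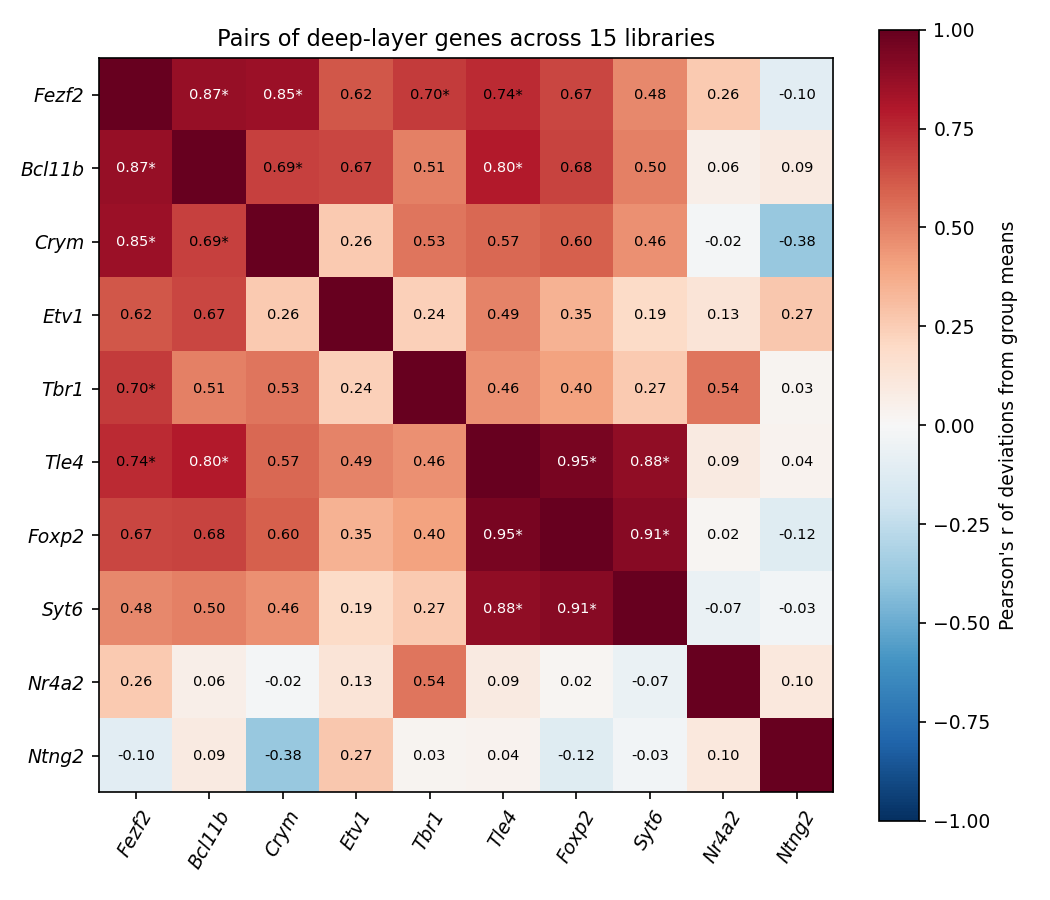
Pearson's r between deep-layer genes over 15 libraries, after group means were removed (color from -1 to 1; a star marks an adjusted permutation p under 0.05 over 45 pairs). Tle4, Foxp2 and Syt6 form the block of highest values and Nr4a2 and Ntng2 carry no star.

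Promoters of 3 members are shown because these genes varied together (Tle4 and Syt6) or apart from the rest (Nr4a2). Each is the 250 bases before the annotated start in RefSeq, build GRCm38.p6, written 5′ to 3′ on the gene's strand, and 8 of the 10 members had such a window (Foxp2 and Crym had none). Capitals mark a TATA-box match.
Tle4 (chr19:14598184-14598433, minus strand): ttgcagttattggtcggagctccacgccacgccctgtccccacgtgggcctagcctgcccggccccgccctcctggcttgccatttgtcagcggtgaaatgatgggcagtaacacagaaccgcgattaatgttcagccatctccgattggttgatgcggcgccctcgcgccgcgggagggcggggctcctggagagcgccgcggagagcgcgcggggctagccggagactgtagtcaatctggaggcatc
Syt6 (chr3:103574995-103575244, plus strand): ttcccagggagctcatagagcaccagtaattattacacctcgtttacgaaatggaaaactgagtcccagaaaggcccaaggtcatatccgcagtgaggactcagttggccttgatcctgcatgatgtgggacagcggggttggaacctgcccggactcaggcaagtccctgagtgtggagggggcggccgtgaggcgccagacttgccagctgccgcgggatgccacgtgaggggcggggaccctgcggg
Nr4a2 (chr2:57124004-57124253, minus strand): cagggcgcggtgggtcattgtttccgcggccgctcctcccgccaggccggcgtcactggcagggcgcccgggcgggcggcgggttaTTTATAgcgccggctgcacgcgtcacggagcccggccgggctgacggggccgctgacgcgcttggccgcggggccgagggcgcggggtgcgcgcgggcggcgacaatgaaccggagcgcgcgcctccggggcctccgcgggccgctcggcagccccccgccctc
Of 6 motifs searched on both strands (TCACACC, a T-box site; CCGGAAGT, an ETS site; AAAGGTCA, the NBRE bound by Nr4a receptors; TGTTTAC, a forkhead site; TGACGTCA, the cyclic AMP element; TATAAA, the TATA box), only the TATA box was found in any member's window, as TTTATA in Nr4a2 from -164 to -159 of the start. Of all 32851 windows, 12.4% held that motif and 3.33%, 2.88%, 1.34%, 3.17% and 1.55% held the others in the order given. A match is a description of letters and no more. GC content was 80.0% for Nr4a2, 65.2% for Tle4 and 60.4% for Syt6, beside a median of 52.4% over all windows.

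Other genes that follow the mean deviation of the members were led by Nxph3, a neurexophilin (r = 0.948 over 15 libraries, 0.937 without KO 1 and KO 8), followed by Nrip3 (0.932), Fam163b (0.929), Cntnap4 (0.92), which is a contactin-associated protein, and Hs3st4 (0.919), a heparan sulfate sulfotransferase. For the value without KO 1 and KO 8, group means were taken again. These correlations describe likeness, and all 5 genes were highest in KO 1. Nxph3 was at 5.53 to 14.1 TPM in WT and 5.41 to 54.4 TPM in KO.

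The genes of each deep-layer cell class beyond the members were listed separately, and 0 passed the limma threshold. Of 9 layer 5 extratelencephalic genes, 8 were tested, 4 were higher and 4 lower in mean, and the median log2 difference was 0.00 with and without KO 1 and KO 8, with Ldb2 at 0.23 ± 0.14. Layer 5 intratelencephalic genes had 2 higher and 5 lower (7 tested of 7) and a median of -0.04, which was -0.15 without KO 1 and KO 8. Layer 5/6 near-projecting genes had 4 higher and 1 lower (5 tested of 6) and a median of 0.135 (0.11 without those libraries), led by the receptor gene Trhr at 0.65 ± 0.32. Layer 6b genes had 1 higher and 4 lower (5 tested of 6) at a median of -0.14, which was -0.30 without KO 1 and KO 8. Claustrum genes had 4 higher and 1 lower (5 tested of 6) at a median of 0.33, which was 0.17 without them, with Gnb4 at 0.39 ± 0.17 (limma adjusted p = 0.388) and 0.50 without them. In KO 1 the summed level lay above every WT library for the extratelencephalic (316 TPM against at most 268 TPM), near-projecting (125 against 92.2 TPM), layer 6b (85.4 against 76.0 TPM) and claustrum genes (261 against 218 TPM). Only for layer 6b was KO 1 alone in this. KO 4 (294 TPM) and KO 3 (276 TPM) also did so for the extratelencephalic genes. KO 3 was the highest library for near-projecting (126 TPM) and claustrum genes (292 TPM). KO 4 (254 TPM) and KO 5 (246 TPM) also exceeded every WT library for claustrum genes. Abundant genes weigh most in a sum, such as Gng2 at 147 TPM and Synpr at 93.3 TPM in KO 1. By the list mean of log2(TPM + 1), KO 1 again exceeded every WT library for each of these lists. KO 3 (4.461) then did not for extratelencephalic genes (WT at most 4.592). KO 4 (3.474) and KO 5 (3.202) then did for near-projecting genes (WT at most 3.164). KO 8 (4.148) did for claustrum genes (WT at most 3.966). Differences between the classes were not tested.

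Layer 6 corticothalamic genes, 6 tested of 7, had 4 higher and 2 lower in mean, of which 1 was higher at an unadjusted p under 0.05. The median was 0.22, and 0.03 without KO 1 and KO 8. Their summed level was 36.7 to 61.7 TPM in WT, 160 TPM in KO 1, 102 TPM in KO 8 and at most 79.2 TPM in the other KO libraries. Rprm, a reprimo protein gene used as a corticothalamic marker, was at 8.25 to 20.1 TPM in WT and at 75.1 TPM in KO 1, 38.7 TPM in KO 8 and 9.56 to 35.8 TPM in the rest, with a log2 difference of 0.82 ± 0.38 (limma adjusted p = 0.41) and 0.39 without KO 1 and KO 8. Ntsr1, whose promoter drives the usual corticothalamic Cre line, was at 0.40 ± 0.23, and Hs3st4 at 0.52 ± 0.30. Without KO 1 and KO 8 these differences were 0.29 and 0.12. Sulf1 went the other way, at -0.19 ± 0.33 over all libraries. Without KO 1 and KO 8 it was at -0.62, the largest difference of the list in either direction. In that setting 3 of the 6 tested genes were lower in mean. Sulf1 was named after its values were seen.

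Genes related to the members by family or by binding gave few differences. Of 16 paralogs 14 were tested (Fezf1 and Eomes were listed at 0), 5 were higher and 9 lower in mean, and at an unadjusted p under 0.05 there was 1 in each direction: Aes, a short Groucho relative of Tle4, at 0.43 ± 0.18 and Nr4a1, the activity-induced relative of Nr4a2, at -0.68 ± 0.25 (limma adjusted p = 0.387 and 0.354). Nr4a1 averaged 206 ± 71.3 TPM (SD, n = 7) in WT and 132 ± 60.4 TPM (SD, n = 8) in KO. The paralogs' median was -0.04, and -0.06 without KO 1 and KO 8. Of 8 binding partners 5 were higher and 3 lower, at a median of 0.04 (0.01 without them), led by Rxrg, a retinoid receptor that pairs with Nr4a2, at 0.57 ± 0.23 (limma adjusted p = 0.382). Of 12 regulators of deep-layer fate, 4 were higher and 8 lower, with a median of -0.05 (-0.075 without KO 1 and KO 8).

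Upper-layer neuron genes, 12 tested of 12, ran in the opposite sense to the members: 1 was higher and 11 were lower in mean, with 0 past the threshold by limma and 5 lower at an unadjusted p under 0.05, and a median of -0.23 (-0.13 without KO 1 and KO 8). Cux2, a homeobox factor of layers above layer 5, was at 103 to 189 TPM in WT, 56.7 TPM in KO 1, 48.2 TPM in KO 8 and 89.0 to 129 TPM in the rest. Their list mean was lowest in KO 1, KO 8 and KO 4, the same libraries in which the members were highest. Over the 15 libraries the deviations of Foxp2 from its group means ran against the upper-layer mean at r = -0.864 and rho = -0.854 (adjusted permutation p = 0.0021 over 30 relations of members with 3 lists, chosen after the values were seen; r = -0.818 without WT 3 and KO 1, -0.586 within WT and -0.929 within KO). Tle4 gave r = -0.84 and rho = -0.775 (adjusted permutation p = 0.0023), Syt6 r = -0.834 and rho = -0.811 (adjusted permutation p = 0.0023), and Crym r = -0.763 and rho = -0.661 (adjusted permutation p = 0.0172 by r and 0.0623 by rho). The part of upper-layer content in the members' values was not tested. Excitatory neuron genes as a whole (10 of 10 detected, 5 higher and 5 lower in mean) summed to 5030 to 6100 TPM in WT and 5220 to 6050 TPM in KO, at a median difference of -0.02 (0.04 without KO 1 and KO 8).

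Oligodendrocyte genes were compared with the corticothalamic trio because KO 1 and KO 8 were highest for both, and no relation passed. It was r = 0.743 for Syt6, 0.732 for Tle4 and 0.717 for Foxp2 over 15 libraries. In the same order, rho was 0.525, 0.529 and 0.5, and the adjusted permutation p of r was 0.105, 0.0824 and 0.105. Without KO 1 and KO 8, and with the group means of all libraries kept, r was 0.18, 0.302 and 0.24. Within WT it was -0.608, -0.207 and -0.633. Oligodendrocyte genes were lower in mean in KO for 8 of 10 with all libraries, at a median of -0.05, and for 10 of 10 without these 2, at a median of -0.48. With the oligodendrocyte list mean as a covariate, the limma log2 difference was 0.56 ± 0.23 for Syt6, 0.25 ± 0.12 for Tle4 and 0.59 ± 0.19 for Foxp2. The limma adjusted p-values were 0.349, 0.4 and 0.274. Over all libraries without the covariate, these differences were 0.51, 0.23 and 0.55. The cause of the trio's values was not tested.

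Early genes, induced within minutes to hours of neuronal activity, were lower in mean in KO for 10 of 10, 7 of them at an unadjusted p under 0.05 by limma and 0 past the threshold, at a median of -0.57 (-0.45 without KO 1 and KO 8). Egr2 was at -1.90 ± 0.63, Arc at -1.06 ± 0.42 and Egr1 at -0.64 ± 0.26. Their sum ran from 534 TPM to 1930 TPM in WT, highest in WT 7, and from 374 to 1290 TPM in KO. Nr4a2 was the only member whose relation with the early genes passed, at r = 0.762 and rho = 0.707 (adjusted permutation p = 0.011 by r and 0.0368 by rho; r = 0.637 without WT 7 and KO 7). Within WT the r was 0.969 and within KO 0.609. Their part in the Nr4a2 difference was not tested.

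Lists of other cell types also differed in mean between the groups, with 0 past the limma threshold in each. Astrocyte genes were lower in mean in KO for 9 of 10 (8 at an unadjusted p under 0.05), and summed to 1900 to 2550 TPM in WT and 1590 to 2150 TPM in KO, with a median difference of -0.26 (-0.25 without KO 1 and KO 8). Endothelial genes were lower in mean for 10 of 10 (9 at an unadjusted p under 0.05), at 198 to 325 TPM in WT and 142 to 250 TPM in KO, with a median of -0.53 (-0.53 likewise). Inhibitory neuron genes were lower in mean for 9 of 11 (4 at an unadjusted p under 0.05), at 938 to 1060 TPM in WT and 854 to 1150 TPM in KO, with a median of -0.17 (-0.16 likewise). TPM of a library sum to a fixed total, and the part of these lists in the higher means of the deep-layer genes was not tested.

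**Figure D5:**
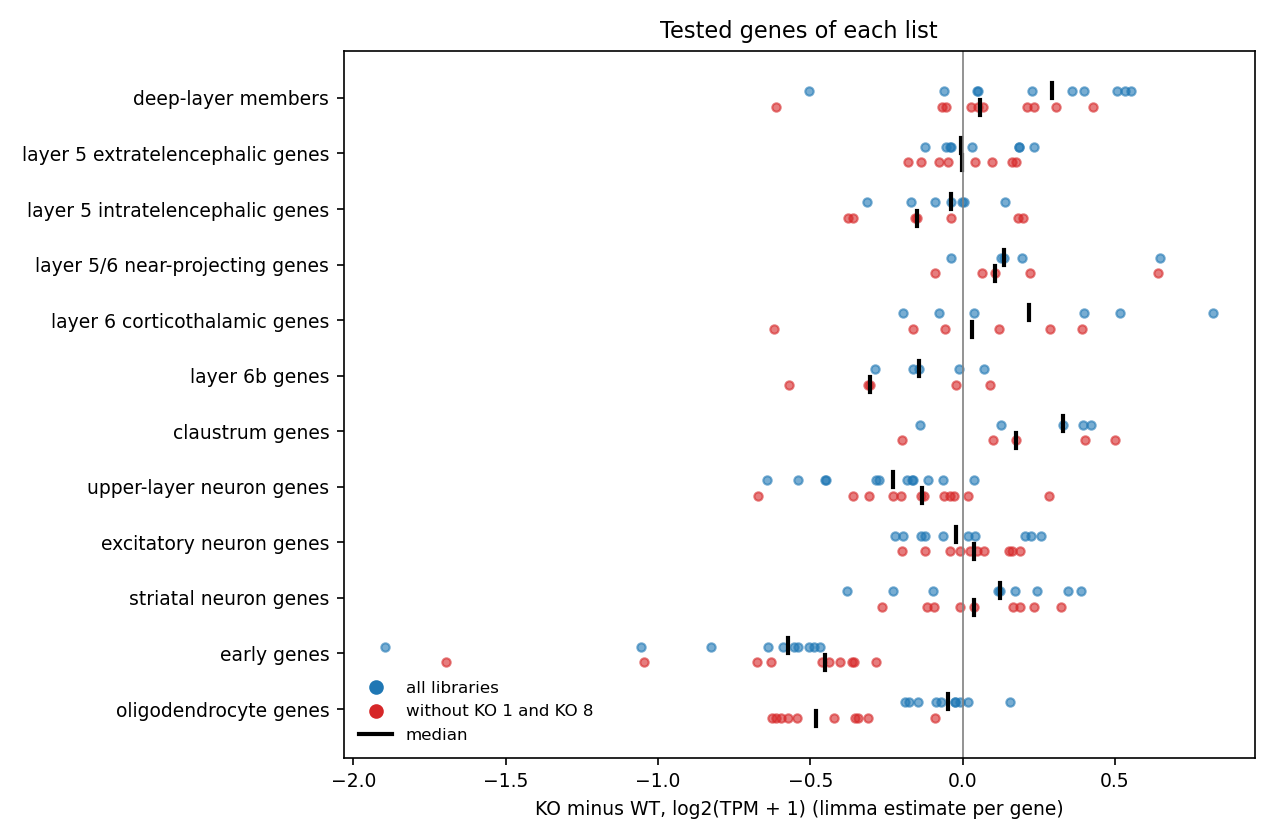
KO minus WT difference on the log2(TPM + 1) scale (x axis) of each tested gene in the deep-layer members and 11 other lists, over all libraries (blue) and without KO 1 and KO 8 (red), with black bars at the medians. The members' median moves from 0.29 to 0.06 and that of the corticothalamic list from 0.22 to 0.03, while the early genes stay lower in mean.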

How the data were processed

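Total RNA of prefrontal micropunches was read on the BGISEQ-500 platform, in 7 WT and 8 KO libraries. The authors deposited 1 table of TPM, made with Trimmomatic, HISAT2 and StringTie on mm10 per the submitters' processing notes; tool versions, annotation and strandedness: not given in the sources used here. This unit scales by transcript length and library total, so it holds no depth, and each library summed to 999789 to 999899. A further 2 columns match no sample and were not used. GENCODE M21 symbols were attached to 54723 of 54838 Ensembl IDs, and TPM of IDs sharing a symbol were summed (102 merged).

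The 18656 genes whose mean reached 1 TPM were tested on log2(TPM + 1) in R 4.3.3 with limma 3.58.1 (intensity trend, two-sided, Benjamini-Hochberg over all tested genes, threshold 0.05). Correlations used numpy 2.4.6 and scipy 1.17.1. The test was tested on simulated data. The members and the 19 gene lists were chosen with earlier results of these data known. Members were all named. Other lists gave up to 3 genes of lowest p, apart from genes stated as named after their values were seen. The 5 genes most alike the members were named by correlation. Alternatives were pseudocounts of 0.5 and 0.1, no filter or a minimum of 5 TPM, median-of-ratios scaling, quantile normalization, a variance prior without trend, the replicate number as a block, cell-type covariates, each library left out in turn, and the fit without KO 1 and KO 8.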

Additional observations from a re-analysis of the deposited data

How the results depend on the processing

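The number of genes past the threshold was 5 and stayed between 4 and 6 under the other settings, with 5 to 6 when 1 library was left out, and was 8 (1 higher, 7 lower) with the replicate number as a block. No member was among them under any setting, and the lowest adjusted p of a member was 0.231. Deviations of same-numbered libraries correlated between -0.043 and 0.122, so the numbers showed no visible pairing of the samples. Such correlations cannot exclude a shared litter or dissection day, which was not tested. The members' median log2 difference was 0.22 with the block, 0.20 to 0.38 with 1 library left out, and 0.058 without KO 1 and KO 8. It was 0.317 with the oligodendrocyte list mean as a covariate and 0.294 with the excitatory neuron list mean as a covariate. KO 8 had no WT library of its number, so the members' differences with the block were those without KO 8. Pairs of members past the threshold numbered 9, 6 to 12 with 1 library left out, and 15 without KO 1 and KO 8 (a setting added for the pairs after seeing the data); the cause was not tested. Of 269 alternative values of single members, 260 kept their direction and 9 reversed, all in Ntng2, Tbr1 or Etv1. Some of these values could not reverse. The exact permutation test, the filter settings and the variance prior without trend leave a member's difference as in the main fit. The values with the block repeat those without KO 8. The 260 are therefore not all separate checks of direction. Ntng2 was at -0.004 with the replicate block and between -0.004 and 0.10 with 1 library left out. Its reversal with the block repeats the one without KO 8. Tbr1 was at -0.054 without KO 1 and KO 8 and between -0.026 and 0.132 with 1 library left out, and Etv1 between -0.166 and 0.043. Depth is unknown for TPM, so the precision of low members such as Foxp2 rests on the spread between libraries.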
